A study of Mus musculus with 10 samples.

Results

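Genes that build and anchor the cardiac sarcomere were followed in hearts of male mice whose mothers had received anti-Müllerian hormone (AMH) or PBS in pregnancy. The group was a fixed list of 31 gene symbols for thin and thick filament, Z-disc, LIM and costamere proteins, matched through the GENCODE vM21 annotation, and all 31 were found among the 55335 genes of the deposited table. The list was set by name and protein role. The choice of genes was made with earlier results of these data known. The control group held 5 hearts of wild-type males exposed before birth to vehicle (PBS). The PAMH group held 5 hearts of wild-type males whose dams were given AMH, a prenatal exposure used to model polycystic ovary syndrome. The labels used here name no strain, age, AMH dose or litter, nor how many animals stand behind a sample. A p-value therefore reflects how much these particular samples scatter, and some of that scatter may be technical or common to litter mates.

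The sarcomere is the contractile unit of striated muscle, in which actin thin filaments anchored at the Z-disc slide past myosin thick filaments held at the M-band. Troponin and tropomyosin on the thin filament make contraction depend on calcium, and titin spans from Z-disc to M-band as a spring. The Z-disc and the neighbouring I-band also hold LIM domain and ankyrin repeat proteins that bind titin or actin and can enter the nucleus, and several of their genes are known to respond to mechanical load in the heart.

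Values are FPKM, read fragments scaled to transcript length and to the mapped fragments of the library, a scale that allows levels to be compared between genes. The FPKM of all genes summed to between 654350 and 717453 per sample. The number of reads behind these values is unknown. PAMH replicate 4 had the fewest genes above 0 (16113, against 18037 to 21097 in the others) and the highest summed hemoglobin and Alas2 level, 863 FPKM against 97.3 to 437 FPKM. The tissue label was checked against markers. Of the defining atrial genes Sln, Myl7, Myl4 and Bmp10 the highest value in any sample was 1.02 FPKM, while the ventricular light chain gene Myl2 lay between 1423 and 2239 FPKM, so the samples hold the transcripts of ventricle with these atrial ones at or near 0. The 1.02 FPKM was Myl7 in PAMH replicate 3. Myl7 was 0 in all controls, and Sln was 0 in all PAMH hearts. Of the other atrial markers, Kcnj3 was at 3.13 to 3.61 FPKM in control and 3.76 to 4.58 FPKM in PAMH hearts. Myl1 was at 7.07 to 8.58 FPKM in control and 6.21 to 11.7 FPKM in PAMH hearts. All 8 atrial markers, which include the load-responsive Nppa, summed to 57.2 to 141 FPKM in control and 88.9 to 229 FPKM in PAMH hearts. Of the 3 tested, 0 passed. The 8 ventricular markers outside the list summed to 3617 to 4430 FPKM in control and 3164 to 4475 FPKM in PAMH hearts. Of the 7 tested, 3 were higher (Myh7, Irx4 and Mlf1). Of 10 general cardiomyocyte markers 0 passed. The skeletal muscle markers outside the list, 12 in number, summed to at most 2.68 FPKM. The 8 epicardial and mesothelial markers summed to 3.69 to 5.06 FPKM in control and 7.44 to 11.5 FPKM in PAMH hearts, and 2 of the 3 tested were higher (Upk3b and Aldh1a2). The 11 endothelial markers summed to 136 to 183 FPKM in control and 121 to 137 FPKM in PAMH hearts, with 1 of 11 lower (Cldn5), and of 9 tested macrophage and leukocyte markers 1 was higher (Cd68). The part of these markers in the differences reported was not tested. In bulk tissue, fewer cells of a type and less RNA per cell cannot be told apart.

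The list spanned more than 3 orders of magnitude. Cardiac alpha-actin Actc1 had the highest mean over the 10 samples, 4277 FPKM, followed by troponin I (Tnni3, 1234 FPKM), troponin C (Tnnc1, 980 FPKM) and alpha-tropomyosin (Tpm1, 864 FPKM). Tcap, which encodes telethonin, averaged 563 FPKM and the LIM protein gene Fhl2 averaged 555 FPKM. Troponin T (Tnnt2, 427 FPKM), the myosin-binding protein gene Mybpc3 (414 FPKM) and desmin (Des, 355 FPKM) came next. Titin (Ttn) averaged 21.2 FPKM and beta-tropomyosin (Tpm2) 2.81 FPKM. The slow skeletal troponin I gene Tnni1, the isoform of the fetal heart, was listed at 0 in 2 control and 2 PAMH samples and reached 0.0796 FPKM at most. It was below the minimum mean of 1 FPKM set for testing, so 30 of the 31 genes were tested. Actc1 alone held 32.5% to 45.3% of the summed FPKM of the 31 genes.

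**Figure D1:**
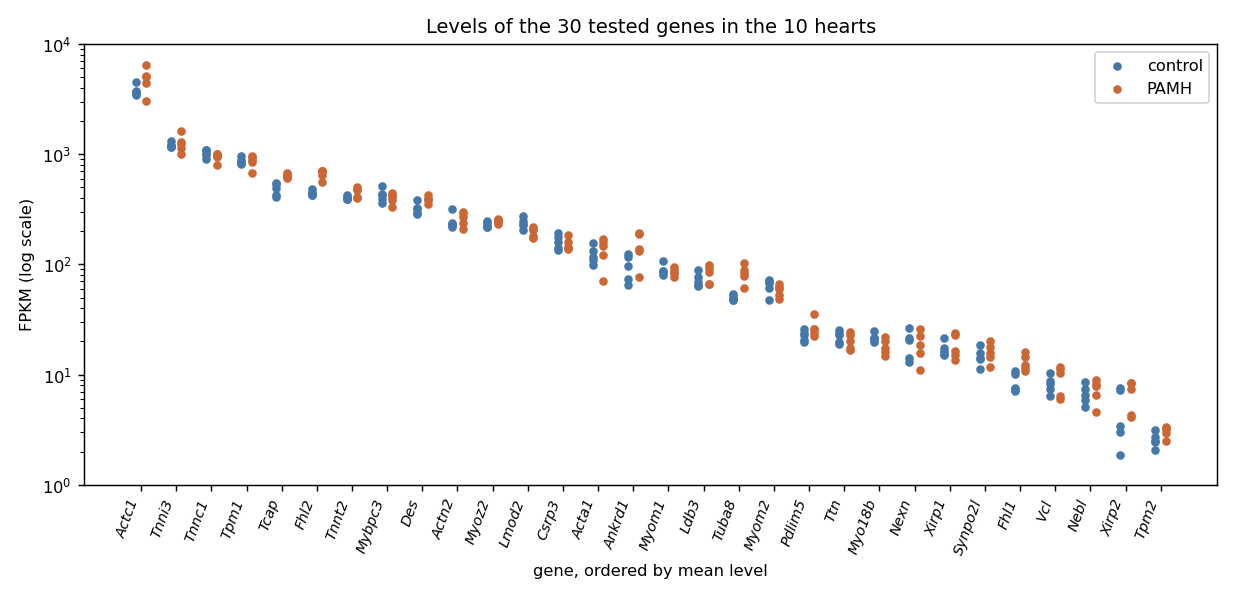
FPKM of the 30 tested genes (log scale) in 5 control and 5 PAMH hearts, 1 point per sample, genes in order of their mean. Levels run from 4277 FPKM for Actc1 to 2.81 FPKM for Tpm2, and the groups overlap for 27 of the genes.

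In PAMH hearts 4 of the 30 tested genes were higher and none was lower, and 26 did not pass the test (limma, adjusted p under 0.05 over all 9439 genes tested). The 4 were the LIM protein genes Fhl2 and Fhl1, the telethonin gene Tcap and the tubulin gene Tuba8. Over all tested genes 6.19% passed in either direction, 4.95% as higher and 1.24% as lower. Called genes are more frequent among abundant ones: with a minimum mean of 5 FPKM, 13.5% of 3893 genes passed, and the 4 calls among the 29 members left there lie near that share. At an unadjusted p under 0.05, 9 of the 30 genes passed, against 2264 of all 9439. The median log2 fold change was 0.10 over the 30 genes and 0.07 over all tested genes. Of the 30 genes 20 were positive, a share close to that of all tested genes (6352 of 9439). The groups did not overlap for 3 of the 30, Fhl2, Tcap and Tuba8, where 8.44% of all tested genes had no overlap, 6.74% with PAMH above control and 1.71% below.

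**Figure D2:**
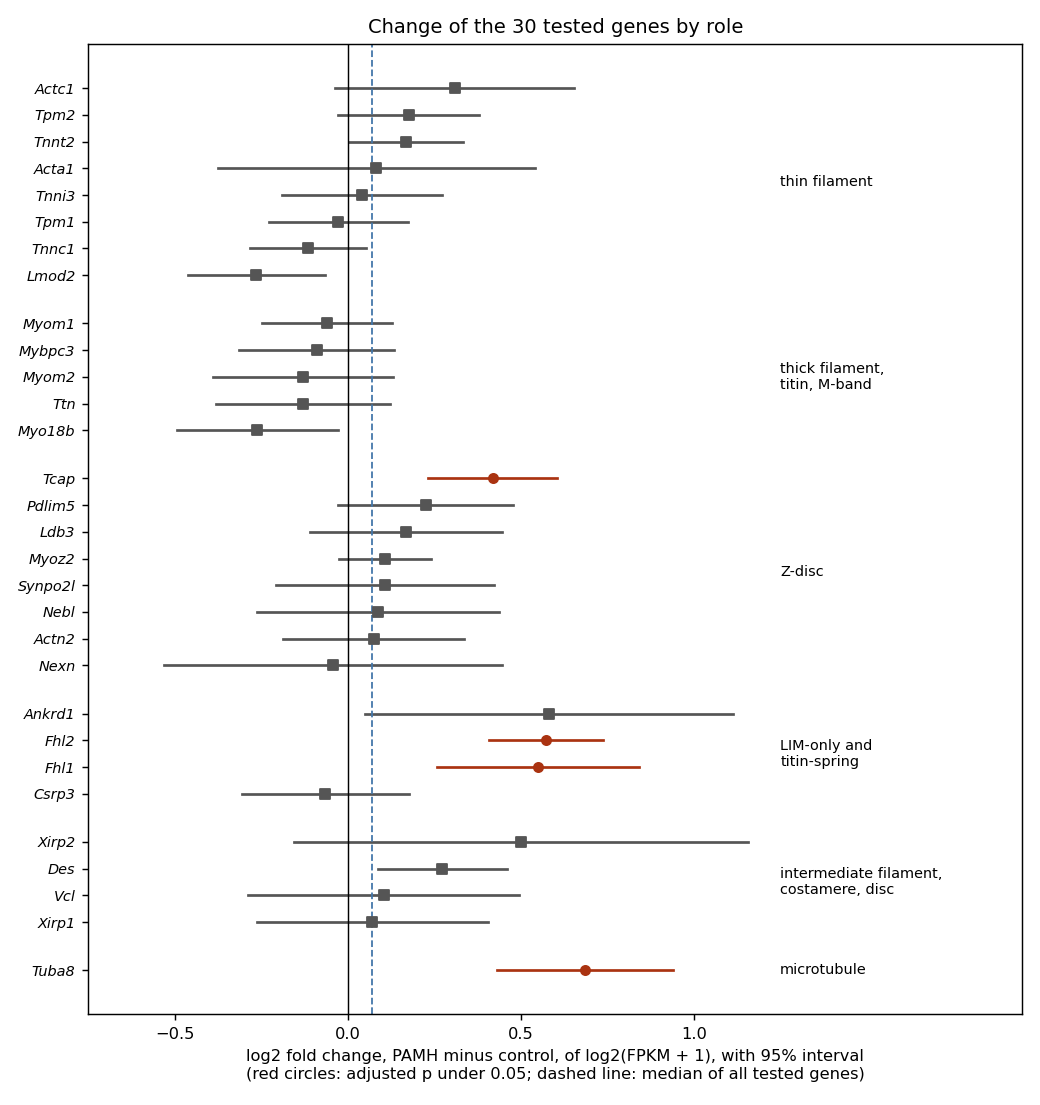
Log2 fold change (PAMH minus control, of log2(FPKM + 1)) of the 30 tested genes with its 95% interval, grouped by role; red circles mark an adjusted p under 0.05 and the dashed line the median of all tested genes, 0.07. The 4 red intervals (Tcap, Fhl2, Fhl1, Tuba8) lie above 0, and the 5 genes of the thick filament, titin and the M-band all have negative values, none past the threshold.

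Fhl2 encodes a protein of LIM domains that binds titin and acts as a transcriptional cofactor in heart muscle (ENSMUSG00000008136, chromosome 1, 43123074 to 43196984, minus strand, build GRCm38). Its level was 427, 479, 426, 456 and 438 FPKM in control replicates 1 to 5 and 704, 699.7, 557, 710 and 651 FPKM in PAMH replicates 1 to 5. Every PAMH heart lay above every control, and the lowest of them, replicate 3, was still above the highest control. Fhl2 had a log2 fold change of 0.57 (SE 0.08, 95% interval 0.41 to 0.74, limma adjusted p = 0.00200). This call held in each of 21 alternative settings.

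Fhl1, the related LIM gene on the X chromosome (56731787 to 56793346, plus strand), had a far lower level, with 10.9, 7.32, 7.48, 7.12 and 10.2 FPKM in control and 15.9, 10.8, 11.5, 14.5 and 12.2 FPKM in PAMH replicates 1 to 5. PAMH replicate 2 fell just below control replicate 1, so the groups overlapped by that 1 pair. Fhl1 had a log2 fold change of 0.55 (SE 0.13, 95% interval 0.26 to 0.84, limma adjusted p = 0.0327). The call held in 10 of 21 alternative settings. It ended without control replicate 2, 3 or 4 or PAMH replicate 1 or 5 (adjusted p 0.0599 to 0.0891). The call also ended with no filter, with sample weights and without PAMH replicates 4 and 5 together. Median ratio scaling, quantile normalization and leaving out the mitochondrial genes ended it as well (limma adjusted p up to 0.108 over the alternatives). Fhl1 made up 1.91% ± 0.446 of the combined Fhl1 and Fhl2 FPKM in control and 1.92% ± 0.254 in PAMH hearts (mean ± SD of 5 samples; exact permutation p = 0.921). The remaining FHL gene above the filter, Fhl3, averaged 1.79 ± 0.273 and 2.74 ± 0.562 FPKM and missed the threshold (adjusted p = 0.0516), passing in 3 of 20 alternative settings.

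The sequences before the starts of both LIM genes and of Tuba8 are shown because each of these genes was called higher. They are the 250 bases upstream of RefSeq starts (build GRCm38.p6), 5′ to 3′ on the strand of the gene, with capitals for matches to any of 5 motifs, searched on both strands. The motifs were the CArG box bound by Srf, the MEF2 site, a TEAD motif spelled CATTCC, an Nkx2-5 motif spelled TNAAGTG, and a GATA motif spelled AGATAA. None of these matches overlap each other in the windows printed. The motifs were chosen after Srf and Nkx2-5 had been seen to be higher.
Fhl2 upstream start, chr1:43196762-43197011, minus strand: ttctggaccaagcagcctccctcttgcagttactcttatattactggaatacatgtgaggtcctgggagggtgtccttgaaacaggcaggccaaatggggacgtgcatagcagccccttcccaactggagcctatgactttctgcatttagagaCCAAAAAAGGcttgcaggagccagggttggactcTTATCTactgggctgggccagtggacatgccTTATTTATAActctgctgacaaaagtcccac
Fhl2 downstream start, chr1:43163962-43164211, minus strand: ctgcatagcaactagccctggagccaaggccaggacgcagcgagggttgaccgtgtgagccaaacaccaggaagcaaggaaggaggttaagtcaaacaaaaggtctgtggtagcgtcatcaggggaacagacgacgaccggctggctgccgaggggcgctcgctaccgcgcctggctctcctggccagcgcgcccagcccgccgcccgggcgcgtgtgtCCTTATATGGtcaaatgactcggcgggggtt
Fhl1 first start, chrX:56779433-56779682, plus strand: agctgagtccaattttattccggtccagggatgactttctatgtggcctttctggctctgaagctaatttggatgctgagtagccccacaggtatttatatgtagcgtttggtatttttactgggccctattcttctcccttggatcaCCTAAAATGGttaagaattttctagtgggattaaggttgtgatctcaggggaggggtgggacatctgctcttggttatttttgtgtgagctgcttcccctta
Tuba8, chr6:121210484-121210733, plus strand: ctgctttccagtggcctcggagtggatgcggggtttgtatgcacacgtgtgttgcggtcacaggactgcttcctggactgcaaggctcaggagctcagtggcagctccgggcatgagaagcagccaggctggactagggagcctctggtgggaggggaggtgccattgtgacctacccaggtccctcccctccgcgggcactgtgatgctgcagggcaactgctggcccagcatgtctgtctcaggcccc

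Both Fhl2 windows held a CArG box, 96 to 87 bases before the upstream start and 31 to 22 bases before the downstream one. The upstream window also held a MEF2 site and the GATA motif. The first Fhl1 window held a CArG box 102 to 93 bases before its start. This window is the first of the RefSeq windows of Fhl1 and lies inside the GENCODE gene. The sequence before the GENCODE start of Fhl1 was not searched. The window of a second Fhl1 start and that of Tuba8 held none of the 5. RefSeq windows were matched for 26 of the 31 genes (37 windows), and the genes not matched were Myom2, Tcap, Nexn, Xirp1 and Myo18b. A CArG box was in 10 of the 37 windows, those of Acta1, Actc1, Fhl1, Fhl2, Ldb3, Myom1, Nebl and Vcl, against 1.47% of 32851 windows of all genes. A MEF2 site was in 7 of the 37, against 2.92% of all. The TEAD motif was in 7 (12.6% of all), the GATA motif in 6 (9.99% of all) and the Nkx2-5 motif in 1 (10.1% of all). Most members with a CArG box, such as Ldb3, Myom1, Nebl and Vcl, did not pass the test. A match describes these letters and not a bound site.

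Ankrd1 encodes an ankyrin repeat protein that binds the titin spring and is a known marker of cardiac load. It had the largest positive estimate of the list after Tuba8 but did not pass. Its level was 124, 64.8, 116, 74.4 and 96.7 FPKM in control and 193, 138, 188, 77.0 and 133 FPKM in PAMH replicates 1 to 5. The PAMH hearts other than replicate 4 lay above every control. The log2 fold change was 0.58 (SE 0.24, 95% interval 0.05 to 1.11, limma adjusted p = 0.171), and without PAMH replicate 4 it was 0.79 (adjusted p = 0.0310). Csrp3, the muscle LIM protein of the Z-disc, had 161 ± 23.9 FPKM in control and 153 ± 19.4 FPKM in PAMH hearts (SD, n = 5 each; 95% interval -0.31 to 0.18 on the log2 scale), an interval that ends below the estimates for Fhl1 and Fhl2.

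Tcap caps the end of titin at the Z-disc (ENSMUSG00000007877, chromosome 11, 98383811 to 98384953, plus strand). It was at 494, 540, 546, 410 and 426 FPKM in control and 676, 611, 634, 653 and 636 FPKM in PAMH replicates 1 to 5. The PAMH values lay close together and above all controls, which were more spread, with replicates 4 and 5 low. The log2 fold change was 0.42 (SE 0.09, 95% interval 0.23 to 0.61, limma adjusted p = 0.0158). The call held in 16 of 21 alternative settings. It held with each single sample left out, and ended with no filter, under median ratio scaling, with the mitochondrial genes left out and without PAMH replicates 4 and 5 together (adjusted p up to 0.0698). It also ended with the replicate number as a block (limma adjusted p = 0.0516).

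The other Z-disc genes did not pass. Actn2, which encodes the alpha-actinin that cross-links actin there, had 247 ± 41.1 and 260 ± 37.3 FPKM, and Myoz2, a calcineurin-binding protein, 230 ± 12.3 and 248 ± 10.9 FPKM (control and PAMH, SD, n = 5 each). Pdlim5 and Ldb3, both of the PDZ-LIM type, had log2 fold changes of 0.23 (SE 0.12) and 0.17 (SE 0.13). Synpo2l, Nebl and Nexn had 0.11, 0.09 and -0.04. The sign of Actn2, Myoz2, Synpo2l, Nebl and Nexn turned under at least 1 other scaling of the samples. Nexn shared 238 of its 4042 different 50-base stretches with the overlapping gene Gm43185, which averaged 0.469 FPKM.

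Among thin filament genes 0 of the 8 tested passed. Actc1 was at 3553, 4535, 3591, 3736 and 3445 FPKM in control and 5030, 5073, 3046, 6382 and 4379 FPKM in PAMH replicates 1 to 5. The highest and the lowest of all 10 values were both PAMH hearts, replicates 4 and 3. The log2 fold change of Actc1 was 0.31 (SE 0.16, 95% interval -0.04 to 0.65, limma adjusted p = 0.261), and without PAMH replicate 3 it was 0.46 (adjusted p = 0.0224). Acta1, the skeletal alpha-actin that is raised in the fetal and the loaded heart, held 3.16% ± 0.597 of the combined Acta1 and Actc1 level in control and 3.01% ± 1.54 in PAMH hearts (mean ± SD of 5 samples; exact permutation p = 0.841). This share was 1.10% in PAMH replicate 4 and 5.33% in replicate 3, beyond every control on either side.

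The 3 adult troponin subunits had small estimates of both signs: 0.17 for Tnnt2 (SE 0.08), 0.04 for Tnni3 (SE 0.11) and -0.11 for Tnnc1 (SE 0.08). Tpm1 had -0.03 and Tpm2 0.18. Tnnt2 passed with sample weights (0.22, adjusted p = 0.0406) and in none of the other 20 alternatives. The signs of Tnni3 and of Tpm1 turned under other scalings of the samples. Tpm2 made up 0.299% ± 0.0640 of the combined tropomyosin level in control and 0.360% ± 0.0812 in PAMH hearts (exact permutation p = 0.238). Lmod2, a leiomodin that lengthens thin filaments, had the lowest estimate of the list. It was at 231, 278, 246, 228 and 204 FPKM in control and 217, 210, 180, 175 and 203 FPKM in PAMH replicates 1 to 5. PAMH hearts were low as a group, with 2 of them above the lowest control. Its log2 fold change was -0.26 (SE 0.09, 95% interval -0.46 to -0.07, limma adjusted p = 0.103), and it passed under median ratio scaling (-0.36, adjusted p = 0.0365), quantile normalization (-0.38, adjusted p = 0.0360) and with the mitochondrial genes left out (-0.38, adjusted p = 0.0355).

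The 5 genes of the thick filament, titin and the M-band had negative estimates, and none passed. Mybpc3, cardiac myosin-binding protein C, was the most abundant at 424, 519, 395, 438 and 361 FPKM in control and 409, 429, 335, 445 and 386 FPKM in PAMH replicates 1 to 5, and the groups overlapped over most of their range. Myo18b, an unconventional myosin needed for sarcomere assembly, had 19.8, 25.0, 21.4, 21.6 and 20.7 FPKM in control and 17.6, 20.2, 16.0, 22.0 and 14.7 FPKM in PAMH hearts. The PAMH values reached lower, but replicates 2 and 4 lay within the control range. The log2 fold change of Myo18b was -0.26 (SE 0.11, 95% interval -0.49 to -0.03, limma adjusted p = 0.160). Ttn had -0.13 (SE 0.12) and the M-band genes Myom1 and Myom2 had -0.06 and -0.13. Under the other scalings all 5 stayed negative, whereas Myom1 turned positive with sample weights and without control replicate 2, and Ttn without PAMH replicates 4 and 5. The share of Myom2 in the combined myomesin level was 41.5% ± 3.03 in control and 40.3% ± 2.26 in PAMH hearts (exact permutation p = 0.540). Myom1 shares 207 exonic bases with Myl12a (mean 107 FPKM) on the opposite strand; since no strand setting is given, reads from this overlap could belong to either gene.

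Desmin forms the intermediate filaments that tie Z-discs together. Des was at 325, 385, 320, 286 and 293 FPKM in control and 429, 389, 352, 388 and 381 FPKM in PAMH replicates 1 to 5, and control replicate 2 alone reached into the PAMH range. Its log2 fold change was 0.27 (SE 0.09, 95% interval 0.09 to 0.46, limma adjusted p = 0.0775), and it passed without control replicate 2 (0.34, adjusted p = 0.0300) or without PAMH replicate 3 (0.31, adjusted p = 0.0423), and with sample weights (0.32, adjusted p = 0.0231). Vcl (vinculin), Xirp1 and Xirp2, of costameres and the intercalated disc, did not pass. Xirp2 varied most among the tested genes (coefficient of variation 56.9% in control and 33.2% in PAMH hearts), with 1.86 to 7.62 FPKM in control and 4.11 to 8.45 FPKM in PAMH hearts. Des is also made by smooth muscle, whose markers outside the list (12 genes) summed to 146 to 184 FPKM in control and 187 to 241 FPKM in PAMH hearts. Without Acta2, the 1 of 11 tested that passed, that sum was 121 to 146 FPKM in control and 115 to 141 FPKM in PAMH hearts. Vcl shares 2090 exonic bases with Ap3m1 (mean 5.12 FPKM) on the opposite strand.

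Tuba8 encodes an alpha-tubulin expressed in striated muscle and testis and is the microtubule gene of the list (ENSMUSG00000030137, chromosome 6, 121210696 to 121226854, plus strand). It was at 47.9, 54.1, 49.6, 52.5 and 47.7 FPKM in control and 78.1, 83.0, 60.5, 103 and 89.6 FPKM in PAMH replicates 1 to 5. The controls lay within a narrow band, all PAMH hearts were above it, and replicate 3 was the closest to it. Its log2 fold change was 0.69 (SE 0.12, 95% interval 0.43 to 0.94, limma adjusted p = 0.00724), and the call held in each of 21 alternative settings. Of its 2214 different 50-base stretches 4 were also in transcripts of other genes, and for Fhl2, Fhl1 and Tcap the number was 0.

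**Figure D3:**
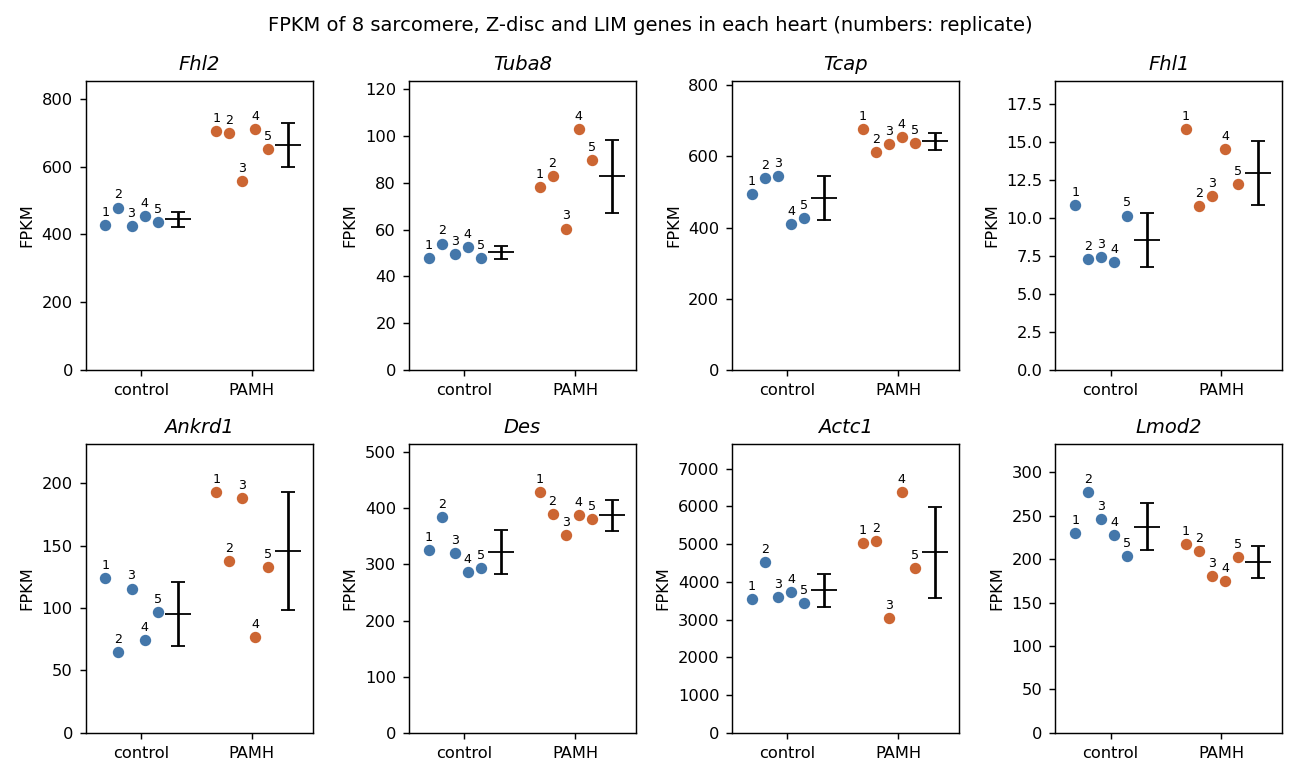
FPKM of 8 genes in each heart (points, numbered by replicate) with the mean and SD of each group (n = 5). PAMH points lie above all control points for Fhl2, Tuba8 and Tcap; PAMH replicate 4 is low for Ankrd1 (77.0 FPKM) and replicate 3 is low for Actc1 (3046 FPKM).

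In the deposited FPKM, the precision of the estimates bounds what the genes that did not pass can have changed. Other scalings gave other estimates, such as -0.40 for Myo18b under quantile normalization. For 23 of these 26 genes the 95% interval lay within 1.5-fold in either direction, a share close to that of all tested genes that did not pass (8036 of 8855). The exceptions were Actc1, Ankrd1 and Xirp2, whose upper limits on the log2 scale were 0.65, 1.11 and 1.16.

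The genes did not shift together in each heart. Set against the control mean, the median deviation of the 30 genes was 0.17, 0.22, 0.01, 0.14 and -0.01 on the log2 scale in PAMH replicates 1 to 5. The median over all tested genes in the same samples was 0.13, 0.08, 0.01, 0.10 and 0.06. PAMH replicate 3 had the lowest value of its group for 15 of the 30 genes, among them Actc1, Tnni3, Fhl2, Des and Tuba8, and the highest for 4 (Acta1, Tpm2, Xirp2 and Nebl). PAMH replicate 4 had the highest value for 13, among them Actc1, Tnni3 and Tuba8, and the lowest for 8, among them Acta1, Ankrd1, Nexn and Lmod2. Control replicate 2 had the highest control value for 18 genes and control replicate 5 the lowest for 15. PAMH replicate 4 also had the low gene number and the high hemoglobin, and their part in its extreme values was not tested. PAMH replicate 3 and control replicate 2 had 20625 and 19664 genes above 0. Of all samples, PAMH replicate 3 had the lowest sum of the ventricular markers outside the list (3164 FPKM, others from 3617). It also had the lowest sum of 11 fibroblast markers (297 FPKM, others from 343) and the highest epicardial sum (11.5 FPKM). Its sum of 10 general cardiomyocyte markers, 10302 FPKM, lay within the control range. The part of these differences in its extreme values was not tested.

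**Figure D4:**
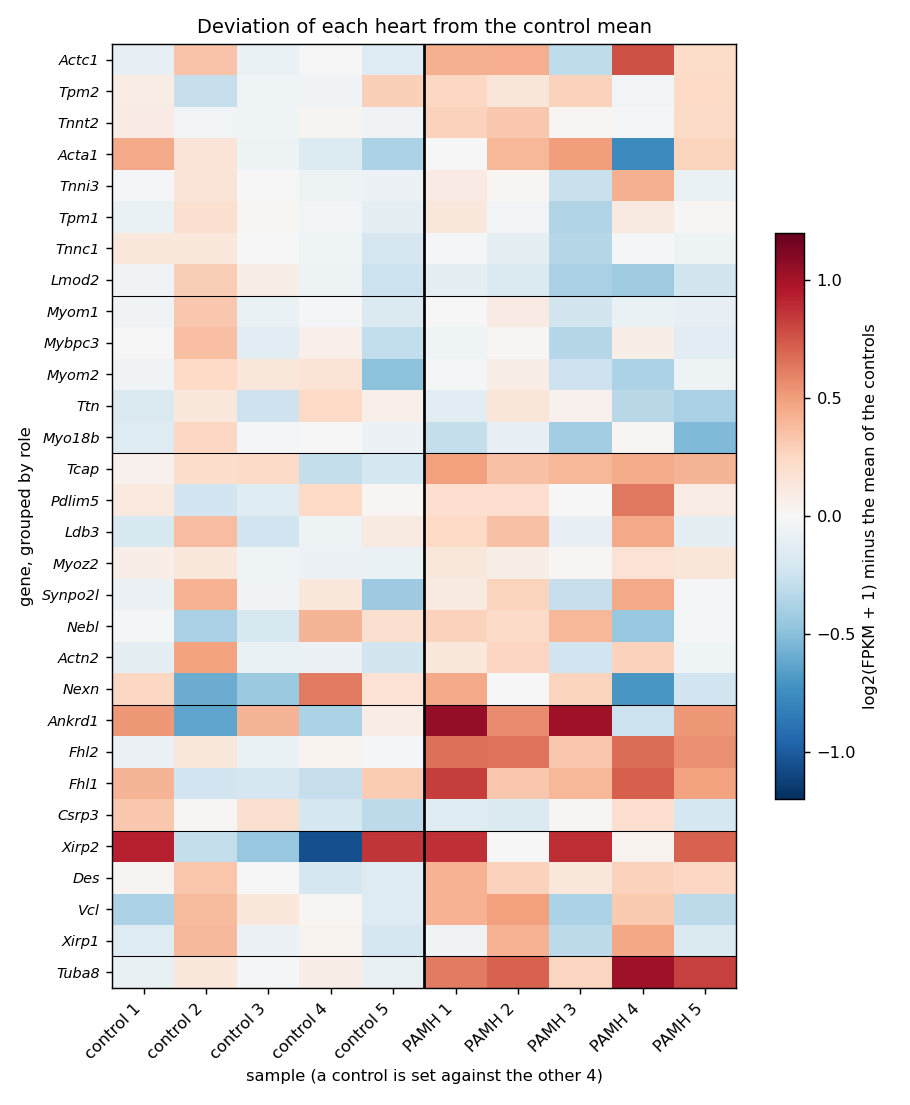
Deviation of log2(FPKM + 1) in each heart from the mean of the controls (colour), for the 30 tested genes by role; each control is set against the other 4. Fhl2, Fhl1, Tcap, Tuba8, Des, Myoz2 and Pdlim5 are positive in all 5 PAMH hearts, and Lmod2 and Tnnc1 are negative in all 5. The median over all tested genes is also positive in each PAMH heart. Acta1 (-0.76) and Actc1 go opposite ways in PAMH replicate 4.

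Other genes of the same structures were read from a list of 120 symbols for further filament, Z-disc, LIM, costamere and chaperone proteins and their transcription factors. Of the 97 tested, 6 were higher, 4 were lower and 87 did not pass, with a median log2 fold change of 0.03. The 10 calls are 10.3% of the 97, against 6.19% of all tested genes. With a minimum mean of 5 FPKM, where 13.5% of all genes passed, 8 of the wider list were higher and 6 lower. How many of the wider list were tested at that minimum was not counted. Among 16 further LIM domain genes none passed at the adjusted threshold and 3 passed at an unadjusted p under 0.05, where 2264 of all 9439 did. The slow myosin gene Myh7 was higher, and its share of the combined Myh7 and Myh6 level was 0.953% to 1.13% in control and 1.34% to 3.31% in PAMH hearts (exact permutation p = 0.00794, the smallest the design allows). Adjusted over the 7 isoform pairs compared, that p was 0.0556, and the other 6 had adjusted p of 0.574 or more. The pairs not yet given were Tnni1 with Tnni3 (exact permutation p = 0.508) and Xirp1 with Xirp2, where Xirp1 held 79.2% ± 11.0 in control and 72.9% ± 11.1 in PAMH hearts (exact permutation p = 0.246).

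Ankrd23, of the same titin-binding family as Ankrd1, was lower. It was at 139, 114, 113, 153 and 125 FPKM in control and 79.4, 80.9, 66.8, 90.3 and 77.9 FPKM in PAMH replicates 1 to 5, with no overlap (log2 fold change -0.69, SE 0.10, limma adjusted p = 0.00342). This is opposite in sign to the estimate for Ankrd1, which did not pass. Of the 14 chaperones and ubiquitin ligases of the sarcomere, Trim63 and Fbxo32, ligases for muscle proteins, were lower (log2 fold changes -0.47 and -0.53) and the small heat shock protein Hspb8 was higher (0.37). Trim63 passed in each of 21 alternative settings and Fbxo32 in 20. The groups overlapped for Hspb8, whose call held in 10 of 21. With 1 sample left out, Hspb8 passed without control replicate 2 or PAMH replicate 3 or 4, and did not pass without any of the other 7 (adjusted p up to 0.108 over the alternatives).

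The transcription factor gene Srf, whose product binds the CArG box of actin genes, was at 20.9 to 23.2 FPKM in control and 25.0 to 38.8 FPKM in PAMH hearts (log2 fold change 0.51, SE 0.11, limma adjusted p = 0.0161). Nkx2-5, a cardiac homeobox factor, was at 18.1 to 20.3 and 22.2 to 42.4 FPKM (0.63, SE 0.13, adjusted p = 0.0181). For both, PAMH replicate 3 was the lowest of its group and replicate 4 the highest. This order was shared by 10 of the 30 sarcomere genes, among them Actc1, Actn2, Tnni3, Mybpc3, Fhl2 and Tuba8. The share of all tested genes with this order was not counted. Their median deviation was lowest in PAMH replicate 3 (0.01) and was 0.10 in replicate 4 and 0.13 in replicate 1. A link of this order to Srf or Nkx2-5 was not tested. Srf passed in 20 and Nkx2-5 in 19 of 21 alternative settings; Nkx2-5 did not pass without control replicate 5 (adjusted p up to 0.0711 over the alternatives). The last 2 of the 6 higher genes were the actin-binding Cap2 (0.26) and Smpx (0.29), a small muscle protein of costameres, whose calls held in 9 and 7 of 21 alternative settings. With 1 sample left out, Cap2 passed without control replicate 2 or PAMH replicate 3 or 4, Smpx without PAMH replicate 3 or 4, and neither passed otherwise (adjusted p up to 0.174 and 0.204 over the alternatives).

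The split of calls depended on how samples were scaled. Over all genes 467 were higher and 117 lower in the deposited FPKM, and 218 and 212 under median ratio scaling. Among the 30 sarcomere genes 2 were then higher (Fhl2 and Tuba8) and 1 lower (Lmod2), where 4 and 0 had been called.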

How the data were processed

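RNA-seq of 10 hearts (5 control, 5 PAMH) was used as FPKM, which the authors deposited as 1 table for 55335 Ensembl genes, with RNA extracted by Trizol and libraries made with a VAHTS kit, per the labels' protocols. Per the submitters' processing notes the tools included Trimmomatic 0.38, HISAT2 2.2.1, HTSeq 0.13.5 and DESeq2 1.18.1 with build mm10; how FPKM were computed, with which annotation and strand setting, is not given in the sources used here. Depth is unknown, so no interval from counts is given.

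Columns were matched to samples by the description, and groups came from titles. Symbols and coordinates came from GENCODE vM21 (GRCm38), which held 55154 of the identifiers. Tests used log2(FPKM + 1) of genes averaging 1 FPKM or more, with limma 3.58.1 in R 4.3.3 (group term, empirical Bayes with trend, 2-sided, Benjamini-Hochberg over 9439 genes, threshold 0.05). A fold change on this scale understates that of low genes. Shares of isoform pairs were compared by exact 2-sided permutation tests, adjusted over 7 pairs. The fit was tested on simulated data. Promoter windows came from RefSeq (GRCm38.p6). The members and lists were chosen with earlier results of these data known. Values per sample are given for each member that passed, each whose groups do not overlap, and the most abundant member and that with the smallest p of each role; Ankrd1 was added after its values were seen. Of the wider list, genes that passed and the one with the smallest p of each sublist are named, except 1 that is not reported here. There were 21 alternatives: pseudocount, filters, scalings, weights, robust fit, replicate block and samples left out. Figures were drawn with matplotlib 3.10.9.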

Additional observations from a re-analysis of the deposited data

Results flagged for a closer look

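In groups of 5, the highest and the lowest sample of each tested gene were compared with the range of the group (Dixon's test, critical value 0.71), for 60 pairs of gene and group. Chance alone marks about 1 in 20 groups, and 5 of the 60 were marked. Control replicate 2 stood above the other controls for Actc1 (4535 FPKM, others up to 3736), Actn2 (319 FPKM, others up to 236), Tnni3 (1314 FPKM) and Myom1 (107 FPKM). It had no such value for Fhl2, Fhl1, Tcap or Tuba8. PAMH replicate 4 stood above its group for Pdlim5 (35.4 FPKM, others up to 26.1).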

How the results depend on the processing

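Settings varied were the pseudocount (0.1), the filter (none, or 5 FPKM), the scaling (4 others), sample weights, a robust fit, a replicate block, and samples left out (PAMH replicates 4 and 5 together, or each in turn). Fhl2 and Tuba8 passed in all 21, Tcap in 16, Fhl1 in 10. The number of sarcomere genes called higher was 2 with no filter, under median ratio scaling and with mitochondrial genes left out, against 4. The number called lower was 1 under median ratio scaling (Lmod2), 2 under quantile normalization (Lmod2, Myo18b) and 3 with mitochondrial genes left out (Lmod2, Myo18b, Tnnc1), against 0. In the wider list 6 were called higher, and 3 with no filter, 3 under median ratio scaling, 14 with sample weights and 2 to 13 with 1 sample left out (2 without control replicate 5, 13 without PAMH replicate 3). There 4 were called lower, and 10 under median ratio scaling, 12 under quantile normalization and 10 with mitochondrial genes left out. The cause was not tested. Over all genes 584 were called, and 264 with no filter, 1214 with sample weights, 357 without PAMH replicates 4 and 5 and 274 to 1126 with 1 sample left out (1126 without PAMH replicate 3). The higher and lower calls were 467 and 117, then 538 and 86 rescaled to equal sums, 218 and 212 under median ratio scaling, 223 and 244 under quantile normalization and 211 and 195 with mitochondrial genes left out. The median log2 fold change of the 30 genes was 0.14, 0.0068, -0.0037 and -0.010 in those 4 scalings, and that of all tested genes 0.11, -0.0039, -0.0054 and -0.021.

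Labels number replicates 1 to 5 in both groups. The deviations of same-numbered samples had correlations of -0.19 to 0.16. PAMH replicates 1 and 2 correlated best with the control of their own number, and replicates 3, 4 and 5 with another control. The labels name no pairing, and these correlations cannot exclude one. With the replicate block 3 sarcomere genes were called higher (Tcap was lost, adjusted p = 0.0516), 3 of the wider list, and 239 of all genes.

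The genes whose sign turned had not passed the test. Under median ratio scaling these were Acta1 (-0.015), Actn2 (-0.023), Tnni3 (-0.057) and Xirp1 (-0.022). Under quantile normalization they were Actn2 (-0.040), Xirp1 (-0.056), Vcl (-0.013), Nebl (-0.011) and Synpo2l (-0.014). With mitochondrial genes left out they were Acta1 (-0.031), Actn2 (-0.039), Tnni3 (-0.073), Myoz2 (-0.0054), Xirp1 (-0.040), Vcl (-0.0024), Nebl (-0.015) and Synpo2l (-0.00023). Rescaling to equal sums gave Tpm1 0.021 and Nexn 0.0017, and sample weights gave Tpm1 0.0094, Myom1 0.0023 and Nexn 0.041. Without PAMH replicates 4 and 5, Tnni3 had -0.048, Ttn 0.024, Nexn 0.24 and the Acta1 share a difference of 0.421 percentage points. With 1 sample left out the ranges were -0.021 to 0.29 for Acta1, -0.055 to 0.12 for Tnni3, -0.068 to 0.056 for Tpm1, -0.10 to 0.0042 for Myom1, -0.17 to 0.12 for Nexn and -0.028 to 0.17 for Xirp1. The difference in the Acta1 share then ranged from -0.725 to 0.332 percentage points and that in the Fhl1 share from -0.0862 to 0.158. FPKM hold no read number, so no floor can be given for Tnni1.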
